A study of Mus musculus with 23 samples.

Results

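The cytosolic ribosomal protein genes encode the protein subunits of the ribosome that translates nuclear messages. They were taken from a brain RNA-seq count table by symbol. Symbols made of Rpl or Rps, a number and an optional a or x were kept, together with Rplp0, Rplp1, Rplp2 and Rpsa, where the mean over all libraries was at least 1 CPM (a gene's counts after scaling each library to a total of 1000000). The pattern matched 76 of 22310 named genes, and all 76 reached the minimum. They were 46 genes of the large (60S) subunit and 30 genes of the small (40S) subunit, and all 76 were among the 16209 genes that passed the filter on low counts. No measured difference between groups entered the choice.

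The libraries came from brain tissue of C57BL/6J mice, either wild type (WT) or of the genotype Csf1R-G793A. That genotype has an amino acid exchange in CSF1R, the receptor for colony-stimulating factor 1, on which microglia depend for survival. Mice of each genotype ate control chow, chow with 290 mg/kg PLX3397 or chow with 1200 mg/kg PLX5622 for 14 days. Both compounds inhibit CSF1R, and their doses in chow differ. There were 3 libraries of WT mice on control chow and 4 of each other group, 23 in all. The study asked what the substitution and each inhibitor do to brain transcripts, and whether the substitution prevents the inhibitors' effects. The labels give no brain region, age or sex. The sample descriptions give each library its own number, but do not say what the number stands for. Whether the libraries of a group are different animals is thus not stated, and the p-values speak of the spread among libraries only.

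A ribosome holds 1 copy of nearly every one of these proteins, and cells therefore make them in closely matched amounts. Their messages are short, abundant and long-lived. Many begin with a run of pyrimidines, the terminal oligopyrimidine (TOP) tract, through which the kinase mTOR controls their translation by way of LARP1. In brain, neurons and glia all translate with these proteins, and several of the genes serve as reference genes in quantitative PCR.

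The start sites of 7 members are printed because the TOP tract is the sequence feature that this family is known for. A relation between the tract and the members' levels was not tested. Each line gives 15 bases before the annotated start and 15 from the start onward, 5′ to 3′ on the gene's strand, from RefSeq on GRCm38.p6. Capitals mark an unbroken run of C and T that covers the start site. The first 4 genes have such a run: Rps18 of the small subunit (chr17:33955651-33955680, minus strand), Rps6, the substrate of S6 kinase (chr4:86857353-86857382, minus strand), Rplp2 of the ribosomal stalk (chr7:141447636-141447665, plus strand) and Rpl35 (chr2:39005117-39005146, minus strand). The last 3 have none at the annotated start: the stalk gene Rplp0 (chr5:115559452-115559481, plus strand), Rpl41, the smallest ribosomal protein (chr10:128549154-128549183, minus strand), and Rpl5, which carries 5S RNA into the large subunit (chr5:107900513-107900542, plus strand).
Rps18: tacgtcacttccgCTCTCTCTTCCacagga
Rps6: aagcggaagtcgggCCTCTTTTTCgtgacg
Rplp2: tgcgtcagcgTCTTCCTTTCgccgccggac
Rpl35: cggccccgCCCTTTCCTCTTTCTCTCgaac
Rplp0: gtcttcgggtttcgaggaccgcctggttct
Rpl41: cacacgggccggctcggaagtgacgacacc
Rpl5: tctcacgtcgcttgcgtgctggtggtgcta

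Windows of 250 bases before to 50 after a start were at hand for 56 of the 76 members, 66 windows in all. A C at the annotated start followed by 4 bases that are each C or T was present in 13 of the 66 windows (19.7%) and in 2.51% of all 32851 windows. Where that start was allowed up to 5 bases to either side, it was present in 29 member windows (43.9%) and in 18.3% of all windows. The letters CCGGAAG, searched on both strands of the whole window, were found in 36.4% of member windows and 8.86% of all windows. AAGATGGC, which shares the letters AAG with the end of CCGGAAG and can overlap it, was found in 10.6% against 2.75%. Its 7 member windows belonged to 5 members, since overlapping windows of Rpl35a each count. TATAAA was found in 9.09% against 13.6%. These are matches of letters in annotated windows, and an annotated start can lie a few bases from the start that cells use.

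Library totals ran from 26312563 to 48174685 counts. Summed counts of the 76 genes made up 1.13% to 1.79% of a library. Summed levels of neuronal, astrocyte and oligodendrocyte markers were at least 5771, 3434 and 3863 CPM in every library. The summed level of 15 microglial markers was 507 to 553 CPM in WT controls, 113 to 164 CPM in WT mice on PLX3397 and 60.2 to 123 CPM in WT mice on PLX5622. It was 363 to 559 CPM in the 3 G793A groups. In bulk tissue, fewer cells of a type and less RNA per cell cannot be told apart. In WT PLX5622 replicate 1 and G793A PLX5622 replicate 2, summed cerebellar markers stood at 92.0 and 474 CPM, against 22.8 to 35.1 CPM in the other libraries. In WT PLX5622 replicate 1, summed pituitary markers also stood at 101 CPM, mainly Prl and Gh, against 0.804 to 12.3 CPM in the others. Without that library, the members' median for G793A against WT mice on PLX5622 was 0.07, as with it.

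Within the family the levels were far from equal. The median member had a mean of 154 CPM over the 23 libraries, and the means ran from 10.5 CPM for Rpl12, part of the stalk base, to 519 CPM for Rpl3, which lies at the peptidyl transferase centre. Per kilobase of coding sequence, which leaves the UTRs out, the median was 312 CPM. On that scale the highest levels were those of Rpl41 (3142), Rps29 (1484) and the stalk gene Rplp1 (1003), all with short coding sequences. The lowest were those of Rpl12 (21.3), Rpl5 (27.5) and Rpl10a (124). Rpl12 and Rpl5 thus lay below the next lowest member by a wide margin on a scale per coding length, although ribosomes hold the proteins in equal number. These are estimated counts, and whether reads of either gene were assigned to copies under other names was not tested. Rpl5 and Rpl11 are partners in the 5S particle that binds MDM2, and Rpl11 stood at 305 CPM per coding kilobase.

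Genes with near-identical copies are uncertain, because reads that fit several copies are divided among them by estimate. The table lists 15 pseudogene entries named after 13 of the members. Of these, 1 reached a mean of 1 CPM: Rpl10-ps3, at 81.5 CPM beside 146 CPM for Rpl10, a gene of the large subunit. The copy took between 20.2% and 49.5% of the pair's sum from one library to the next, while the sum itself ran from 200.3 to 296 CPM. Across the 23 libraries the correlation (Pearson's r) of log2 CPM with the mean of the other 75 members was 0.38 for Rpl10 alone, 0.65 for Rpl10-ps3 and 0.89 for their sum. Levels of Rpl10 by itself are therefore read with that split in mind. Copies listed under other names were not looked for, so a split in other members was not tested.

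Over all 23 libraries the 76 members varied largely together. Across the 23 libraries the first principal component of the members' log2 CPM held 86.6% of their variance. The median correlation of a member with the mean of all others was 0.95, and 70 of the 76 were over 0.8. The lowest were Rpl10, at 0.38, and Rpl5, at 0.60. These correlations describe the libraries and carry no test, since the points share each library's depth and composition. They include G793A control replicates 3 and 4, both above every other library for 69 members, and were not computed without them. The spread of single genes was small: the median coefficient of variation over all 23 libraries was 12.7%, with the least in Rpl28 (6.27%) and Rpl22 (6.60%) and the most in Rps21 (20.1%). The median coefficient was 7.51% without G793A control replicates 3 and 4, and 6.15% over the 11 WT libraries.

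Summed over the family, the share of counts was 1.34%, 1.16% and 1.21% in the WT control libraries, and 1.32%, 1.24%, 1.79% and 1.51% in the G793A controls, in order of replicate number. With PLX3397 it was 1.18%, 1.18%, 1.19% and 1.17% in WT mice and 1.29%, 1.43%, 1.32% and 1.19% in G793A mice. With PLX5622 it was 1.21%, 1.13%, 1.15% and 1.26% in WT mice and 1.20%, 1.20%, 1.33% and 1.25% in G793A mice. G793A control replicates 3 and 4 thus stood above all other libraries. The WT PLX3397 libraries lay below every G793A control library and, by a narrow margin, below every G793A PLX5622 library. Replicate 3 was the highest of the 23 libraries for 73 members, and replicates 3 and 4 were both above every other library for 69. The ratio of summed 60S to summed 40S counts ran from 1.50 in G793A control replicate 3 to 1.62 in WT PLX5622 replicate 2.

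**Figure D1:**
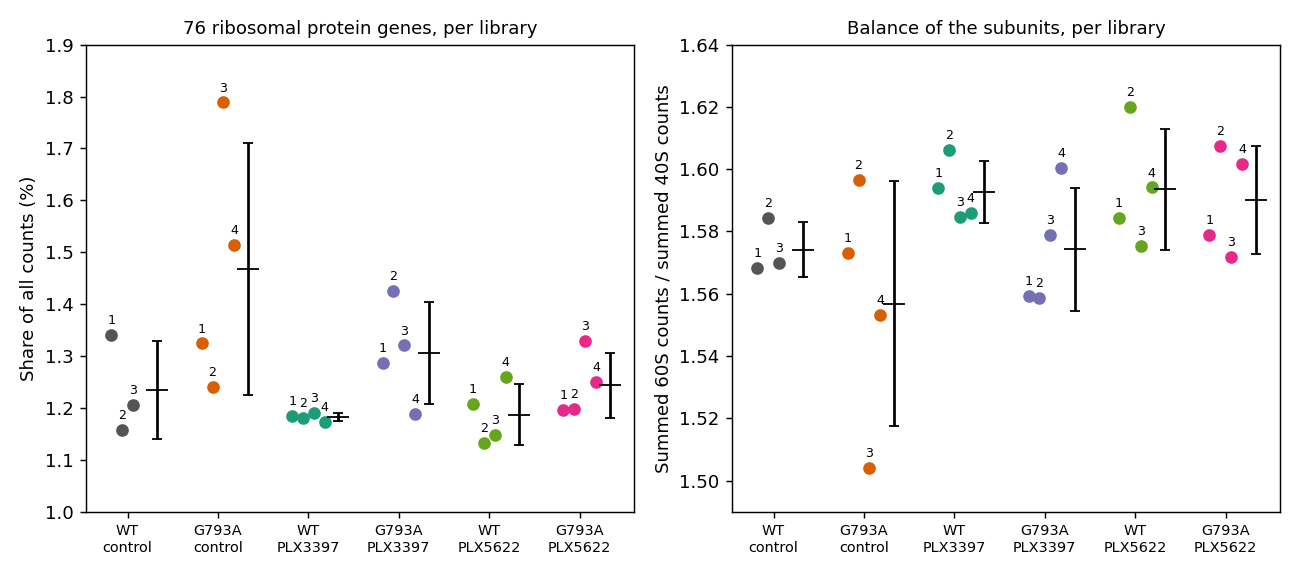
Left, the percentage of each library's counts that fell on the 76 ribosomal protein genes, on an axis that starts at 1%; right, summed 60S over summed 40S counts, on an axis that does not start at 0. Points are libraries numbered by replicate, and bars are mean ± SD of the group: G793A control replicates 3 (1.79%) and 4 (1.51%) lie above all others on the left, and replicate 3 is the lowest point on the right (1.50).

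In WT mice, neither inhibitor moved any ribosomal protein gene past the threshold, an adjusted p under 0.05 over all genes tested (edgeR's quasi-likelihood test). With PLX3397 against WT controls 0 of 76 passed, where 1.52% of all genes did, and 0 had an unadjusted p under 0.05, where 8.21% of all genes did. With PLX5622 0 of 76 passed, where 1.66% of all genes did, and 0 had an unadjusted p under 0.05, where 8.43% of all genes did. DESeq2 called 0 members in both, where it called 1.91% and 2.03% of all genes, and limma-voom and limma on the authors' variance-stabilised values also called 0 members. Over all genes, limma-voom called 254 with PLX3397 and 261 with PLX5622, and limma on variance-stabilised values 177 and 209. The median log2 fold change of the members was -0.04 with PLX3397 and -0.03 with PLX5622, against 0.01 for all genes in each, and 59 of 76 values were negative in each. The 2 comparisons share their control libraries. Without WT control replicate 1, the highest of the 3 controls, the medians were 0.02 and 0.03.

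The intervals give a range for each member's change relative to the other genes of the libraries. They are taken gene by gene and are not adjusted for the number of members. All 76 of the 95% intervals lay within ±0.5 on the log2 scale in both comparisons. With PLX3397 they reached from -0.40 for Rps21 to 0.40 for Rps14, and with PLX5622 from -0.44 for Rpl12 to 0.32 for Rps14. In the same libraries 14 of the 15 microglial markers were called lower, with median log2 fold changes of -2.13 with PLX3397 and -2.93 with PLX5622.

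Rplp0, the stalk protein often used as a PCR reference, had 183, 153 and 164 CPM in WT controls. It had 150.1, 145, 148 and 148 CPM with PLX3397, for a log2 fold change of -0.14 ± 0.09 (SE) and an adjusted p of 0.76 by edgeR. The 4 libraries on PLX3397 lay below all 3 controls. With PLX5622 Rplp0 stood at 159, 140.4, 156 and 159.9 CPM, within the range of the controls or below it, for a log2 fold change of -0.10 ± 0.09 and an adjusted p of 0.89 by edgeR. In all, 5 members had groups that did not overlap with PLX3397, all lower (Rps29, Rplp0, Rpl23, Rps4x and Rpl23a), where 8.26% of all genes did the same. With PLX5622 0 members did, where 8.75% of all genes did in either direction.

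Of the other PCR reference genes, Rps29 had libraries below all controls in WT mice with PLX3397, but did not pass the threshold. The lowest adjusted p of any member in that comparison was 0.76 by edgeR. Rps18 and Rpl13a stayed close to their control levels. Rps29 had 271, 246 and 241 CPM in WT controls and 228, 219.6, 229 and 217 CPM with PLX3397. With PLX5622 it had 232, 206, 225 and 252 CPM, of which only the highest lay inside the control range. Rps18 had 148, 121 and 127 CPM in WT controls, 132, 126, 123 and 125 CPM with PLX3397 and 126, 118, 122 and 139.8 CPM with PLX5622. Its log2 fold changes were -0.03 (95% interval -0.27 to 0.22) and -0.04 (-0.29 to 0.20). Rpl13a, which is also known for its role outside the ribosome in inflammatory translation control, had 211, 166 and 178 CPM in WT controls. With PLX3397 it had 178, 184, 181 and 179 CPM and a log2 fold change of 0.00 (95% interval -0.27 to 0.27). The treated libraries of Rps18 and Rpl13a lay within the spread of the controls or just below its lower end. Rpl22, a gene of the large subunit with 78.2, 75.3 and 74.2 CPM in WT controls, was among the tightest, and its log2 fold change with PLX3397 was -0.02 (95% interval -0.15 to 0.12).

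**Figure D2:**
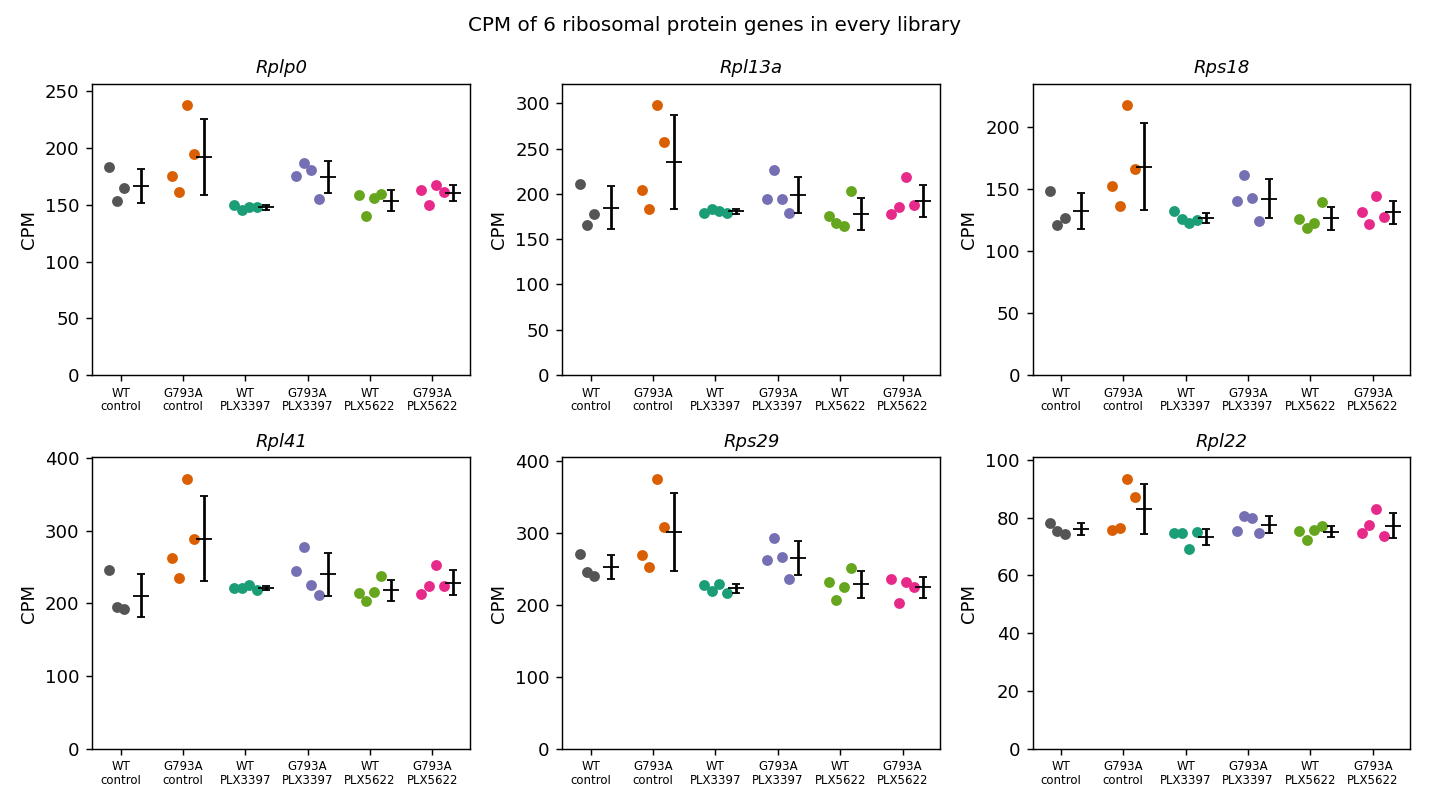
CPM of 6 ribosomal protein genes in each library, on axes that start at 0, with mean ± SD of each group as bars. In every panel the highest point is a G793A control library (replicate 3), and the WT PLX3397 libraries lie close together, for Rplp0 between 145 and 150.1 CPM.

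In mice on control chow, the ribosomal protein genes stood higher with Csf1R-G793A than without it, but none passed the threshold. The log2 fold change of G793A controls against WT controls was positive for all 76, with a median of 0.26 against -0.01 for all genes. It ran from 0.10 for Rpl10 to 0.47 for Rpl41, with a median of 0.24 in the large and 0.27 in the small subunit. By edgeR 0 of 76 passed, as did 0% of all genes, and the lowest adjusted p was 0.36. DESeq2 (0% of all genes), limma-voom and limma on variance-stabilised values called 0 members as well, and both limma fits called 0 of all genes. An unadjusted p under 0.05 on the higher side was found for 65 members, where 5.9% of all genes had one. Since the members vary together, these 65 are not 65 separate observations.

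Rpl41 had 246, 194 and 192 CPM in WT controls and 263, 235, 371 and 288 CPM in G793A controls. Its log2 fold change was 0.47 ± 0.12 (SE), with an adjusted p of 0.36 by edgeR. Replicate 2 of the G793A controls lay inside the range of the WT controls, and replicate 3 was far above it. Rps29, a zinc-binding protein of the small subunit, had 271, 246 and 241 CPM in WT controls and 270.2, 253, 376 and 309 CPM in G793A controls. Its replicates 1 and 2 of the G793A controls lay inside the WT range and replicates 3 and 4 above it. Rps6 had 248, 211 and 241 CPM against 247, 229, 303 and 269.7 CPM, with a log2 fold change of 0.18 ± 0.07. Of the 76 genes, 3 had groups that did not overlap (Rps26, Rpl10a and Rplp2, all higher), where 2.31% of all genes did.

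The small-subunit gene Rps21 varied most of all members. It had 177, 148 and 136 CPM in WT controls and 168, 159, 281 and 211 CPM in G793A controls, with a log2 fold change of 0.42 and the family's highest upper bound, 0.74. Replicates 1 and 2 lay within the WT range and replicates 3 and 4 above it. Rpl3 had 545, 463 and 524 CPM against 515, 509.6, 658 and 588 CPM, with 0.16 ± 0.08. The abundant Rpl3 thus had a smaller log2 fold change than Rps21, although across the family the mean level and the log2 fold change were almost unrelated (Spearman's rho 0.03 over 76 members, as a description).

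Members with other known roles stood on both sides of the family's median. Rps27a, which is made as a fusion with ubiquitin, had a log2 fold change of 0.27 ± 0.12, and Rpl11 had 0.32 ± 0.09. Its partner Rpl5 had 24.9, 25.1 and 24.0 CPM in WT controls and 25.2, 23.3, 31.6 and 26.9 CPM in G793A controls, a log2 fold change of 0.12 ± 0.13. Of the common PCR reference genes, Rps18 had 0.36 ± 0.12, Rpl13a 0.36 ± 0.13, Rpl19 0.29 ± 0.09 and Rpl32 0.31 ± 0.10. None of these passed, and each adjusted p was 0.36 or more by edgeR.

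The size of the difference depends on G793A control replicates 3 and 4. They were picked after seeing that they are the highest in these members, so leaving them out could only lower the median. Without both, the median log2 fold change of the members was 0.06. Without replicate 2 instead, the lowest of the 4, it was 0.33, and 31 members passed by edgeR, where 1.18% of all genes were called higher. Leaving out the lowest library by itself moves the median upward. In replicates 1 and 2, 71 and 38 of the 76 members lay above the mean of the WT controls, against all 76 in replicates 3 and 4. Among the WT controls themselves, replicate 1 had 75 members above that mean.

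**Figure D3:**
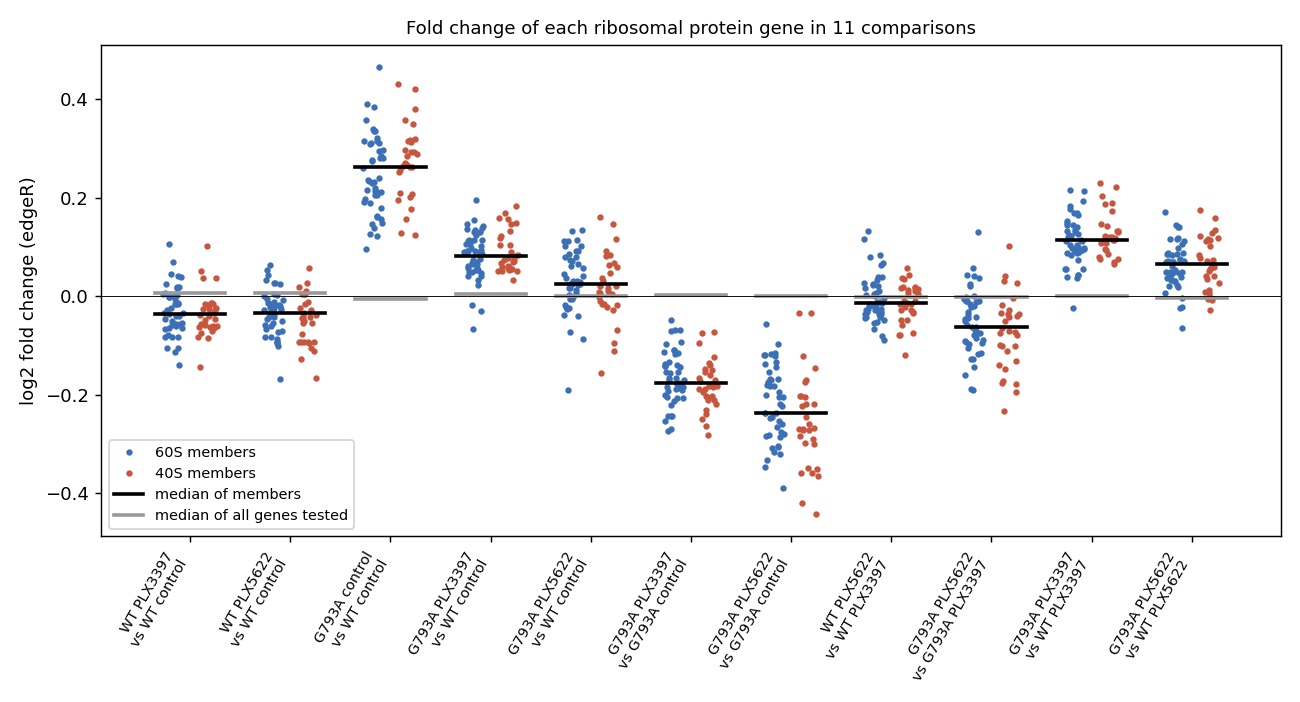
Log2 fold change of each member (points, 60S in blue and 40S in red) in the 11 comparisons between groups, with the median of the members (black line) and of all genes tested (grey line). The members lie near 0 in WT mice on either inhibitor (medians -0.04 and -0.03), above 0 in G793A controls against WT controls (median 0.26), and below 0 in both comparisons against G793A controls (medians -0.18 and -0.24).

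Other values of these libraries were set beside those of the members, and several of them lay inside the range of the other libraries. A score of each library is the mean log2 CPM of a list relative to WT controls. In G793A control replicates 3 and 4 it was 0.53 and 0.30 for the members, 0.40 and 0.21 for nuclear genes of the respiratory chain, 0.25 and 0.13 for mitochondrial ribosomal proteins, and 0.32 and 0.17 for other genes with transcripts under 1000 bases. For genes over 4000 bases it was -0.17 and -0.06. Mitochondrially encoded entries took 7.10% and 5.29% of these libraries, against 3.47% to 6.52% of the others. Summed astrocyte markers stood at 5292 and 4904 CPM, inside the range of the others (3434 to 5468 CPM). G793A PLX5622 replicate 3 held the top of that range and 6.52% mitochondrially encoded entries, at a member score of 0.11. Summed neuronal markers stood at 5771 and 6040 CPM, the former the lowest of all libraries. Summed oligodendrocyte markers stood at 5627 and 4971 CPM, the former the highest of all libraries. Summed choroid plexus markers stood at 1123 and 645 CPM, against 225 to 1067 CPM in the others. The 1067 CPM were those of WT PLX5622 replicate 4, at a member score of 0.03. The part of these values in the members' difference was not tested.

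Transcript length went with the size of the difference, both within the family and outside it. For G793A controls against WT controls, the median log2 fold change was 0.32 for the 11 members with transcripts under 500 bases and 0.22 for 128 other genes of that length. From 500 up to 1000 bases it was 0.27 for 45 members against 0.15 for 899 other genes, and from 1000 up to 2000 bases 0.21 for 16 members against 0.07 for 3517 others. From 2000 up to 4000 bases it was 0.14 for 3 members against -0.00 for 6531 others, and the single member of at least 4000 bases stood at 0.13 against -0.07 for 4741 others. The members' median was thus above that of other genes in each length class, with few members in the last classes. With the trend along length and GC content removed from each library, the members' median was 0.13, and 0 members passed. Across the 76 members, Spearman's rho between transcript length and log2 fold change was -0.54, a description across genes that are not independent.

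**Figure D4:**
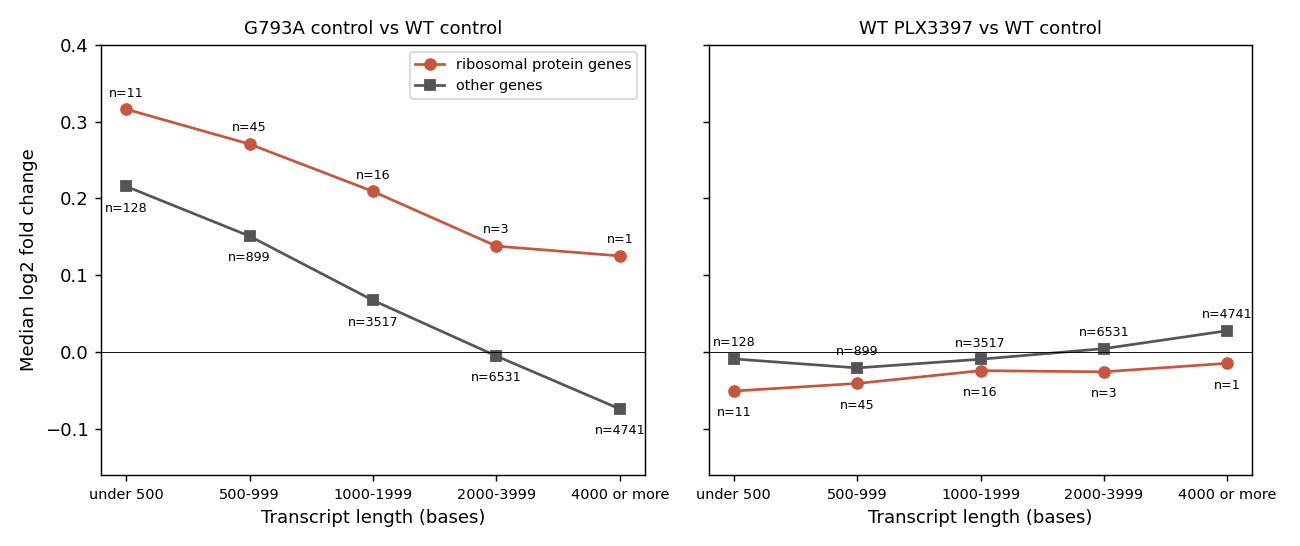
Median log2 fold change by transcript length in bases for ribosomal protein genes (circles) and all other genes tested (squares), with the number of genes beside each point. In G793A controls against WT controls the medians go down from 0.32 to 0.13 in the family and from 0.22 to -0.07 in other genes; in WT mice on PLX3397 against WT controls all medians lie between -0.05 and 0.03.

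Against the same WT controls, the G793A mice on inhibitors showed smaller values. With PLX3397 the members' median log2 fold change was 0.08 with 73 of 76 positive, and with PLX5622 it was 0.02 with 53 positive. Both medians depend on single libraries. The first was 0.04 without G793A PLX3397 replicate 2 and 0.14 without WT control replicate 1. The second was -0.02 without G793A PLX5622 replicate 3 and 0.09 without WT control replicate 1. By edgeR 0 members passed in either comparison, where 0.00617% and 0% of all genes did, and 0 had an unadjusted p under 0.05, where 7.24% and 6.76% of all genes did. DESeq2 called 0 members in both, where it called 0.161% and 0.0494% of all genes, and limma-voom and limma on variance-stabilised values called 0 as well. Over all genes, limma-voom called 3 with PLX3397 and 1 with PLX5622, and limma on variance-stabilised values 2 and 1. All 76 intervals lay within ±0.5 in each, the widest reaching 0.48 for Rps21 with PLX3397 and -0.46 for Rpl12 with PLX5622. Rpl41 had 245, 278, 225 and 211 CPM in G793A mice on PLX3397 and 213, 225, 253 and 223 CPM on PLX5622. Both groups overlapped the WT controls. With PLX3397 0 members had groups that did not overlap (7.46% of all genes), and with PLX5622 1 did, Rps29 on the lower side (4.5% of all genes).

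Set against G793A controls, the same libraries were lower throughout the family. With PLX3397 the median log2 fold change was -0.18, and with PLX5622 it was -0.24, with 0 of 76 values positive in each. The comparisons share the G793A control libraries, so replicates 3 and 4 weigh on both. By edgeR 0 members passed in either, where 0.00617% and 0% of all genes did. An unadjusted p under 0.05 on the lower side was found for 25 members with PLX3397 (5.7% of all genes) and for 61 with PLX5622 (7.85% of all genes). With PLX5622, DESeq2 called 12 members, all lower, among the 4.41% of the 7095 genes to which it gave an adjusted p. It called 0 with PLX3397, where it called 0.173% of all genes, and limma-voom and limma on variance-stabilised values called 0 in both. Over all genes, limma-voom called 1 with PLX3397 and 0 with PLX5622, and limma on variance-stabilised values 0 in both. Without G793A control replicates 3 and 4, picked because they are the highest in the members, the medians were 0.02 and -0.03. That choice by itself moves the medians upward.

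Rps29 had the lowest adjusted p of the family in that comparison. It stood at 270.2, 253, 376 and 309 CPM in G793A controls and at 237, 203, 232 and 226 CPM in G793A mice on PLX5622. The log2 fold change was -0.42 ± 0.09 (SE), with an adjusted p of 0.15 by edgeR and 0 libraries of overlap. Rplp1, an acidic protein of the stalk, had 378, 354, 514 and 411 CPM against 309, 285, 337 and 328 CPM, a log2 fold change of -0.39 ± 0.09 and the same adjusted p. Rps29 and Rplp1 were 2 of 7 members whose groups did not overlap, all lower, where 3.47% of all genes did so. With PLX3397 0 members did, where 3.99% of all genes did in either direction. Without G793A control replicate 2, 45 members passed on the lower side, where 2.71% of all genes did. That library is the lowest of its group in the members, so leaving it out by itself makes the values more negative.

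Between the genotypes on the same inhibitor, most members had positive values for G793A against WT, none past the threshold. On PLX3397 the median log2 fold change of G793A against WT was 0.12 with 75 of 76 positive, and on PLX5622 it was 0.07 with 68 positive. Without G793A PLX3397 replicate 2 the first was 0.06, and without G793A PLX5622 replicate 3 the second was 0.02. By edgeR 0 members passed in either, where 0.938% and 1.09% of all genes did. DESeq2 called 0, where it called 1.1% and 1.19% of all genes, and both limma fits called 0. Over all genes, limma-voom called 152 on PLX3397 and 171 on PLX5622, and limma on variance-stabilised values 116 and 135. On PLX3397, 6 members had an unadjusted p under 0.05 on the higher side (4.11% of all genes). On PLX5622, 2 did (3.56% of all genes). On PLX3397, 19 members had groups that did not overlap, all higher, where 5.37% of all genes did so. On PLX5622, 3 members did, where 2.5% of all genes did so.

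Rplp0 was among the 19, with 150.1, 145, 148 and 148 CPM in WT and 175, 187, 181 and 155 CPM in G793A mice on PLX3397, a log2 fold change of 0.22 ± 0.09 and an adjusted p of 0.54 by edgeR. Rps29 had 228, 219.6, 229 and 217 CPM in WT and 263, 294, 267 and 237 CPM in G793A mice, with 0.22 ± 0.09. All 4 G793A libraries of both genes lay above all 4 WT libraries, and the WT libraries were close together. The family's share of counts differed between WT PLX3397 libraries with an SD of 0.00722 percentage points, against 0.0979 in G793A mice on PLX3397. With the length and GC trend removed, the median on PLX3397 was 0.04.

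Whether the genotypes responded differently is tested by the interaction terms, in which an inhibitor's effect in WT is subtracted from its effect in G793A. The members' median was -0.13 for PLX3397 and -0.19 for PLX5622, with 75 of 76 negative in each. By edgeR 0 members passed, where 0.555% and 0.808% of all genes did. DESeq2 called 0, where it called 0.741% and 1% of all genes, and both limma fits called 0. Over all genes, limma-voom called 107 for PLX3397 and 142 for PLX5622, and limma on variance-stabilised values 58 and 91. An unadjusted p under 0.05 on the lower side was found for 1 member (1.25% of all genes) and for 7 members (3.11% of all genes). Rpl41 was one of the lowest in both, with -0.40 for PLX5622 (95% interval -0.74 to -0.05, adjusted p 0.62 by edgeR). Both terms hold the G793A controls. Without replicates 3 and 4 of that group, picked because they are the highest in the members, the medians were 0.06 and 0.01. That choice by itself moves both terms upward.

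The inhibitors, given at doses that differ, were also compared within each genotype. For PLX5622 against PLX3397 the median log2 fold change was -0.01 in WT mice, with 44 of 76 negative, and -0.06 in G793A mice, with 64 of 76 negative. The latter was -0.02 without G793A PLX3397 replicate 2 and -0.11 without G793A PLX5622 replicate 3. By edgeR 0 members passed, where 0% and 0.00617% of all genes did. DESeq2 called 0, where it called 0.0865% and 0.0124% of all genes, and both limma fits called 0. Over all genes, each limma fit called 0 in WT mice and 1 in G793A mice. All 76 intervals lay within ±0.5 in each, the widest from -0.35 for Rps23 to 0.36 for Rps21 in WT mice. In WT mice 0 had an unadjusted p under 0.05 (4.1% of all genes), and in G793A mice 3 did on the lower side (3.62% of all genes): Rps29, Rpl18 and Rpsa, the laminin receptor precursor. Rpsa had 124, 145, 144 and 123 CPM on PLX3397 and 117, 108, 119 and 121 CPM on PLX5622, and these groups did not overlap. In G793A mice 3 members had groups that did not overlap, all lower (2.3% of all genes), and in WT mice 1 did, Rpl13 on the higher side (2.5% of all genes).

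Genes that work with the ribosomal proteins were read from lists, and 0 members of any list passed in any comparison between groups. In G793A controls against WT controls, the 12 tested ribosomal genes outside the name pattern had a median log2 fold change of 0.27, with 11 positive. Rack1, a scaffold on the small subunit, had 174, 144 and 154 CPM in WT controls and 163, 160.3, 218 and 185 CPM in G793A controls. Rps3a1 and Fau, whose products are small-subunit proteins, were likewise highest in G793A control replicates 3 and 4. The 20 tested genes of elongation factors and other TOP messages, Rack1 again among them, had a median log2 fold change of 0.14, with 18 positive. The 36 genes of ribosome biogenesis had -0.03, with 15 positive, and the 24 genes that control ribosomal protein synthesis had -0.08, with 6 positive. The median transcript was 1713.5 bases in the TOP list, 2544 bases in the biogenesis list and 4788.5 bases in the control list, against 774.5 bases in the ribosomal family.

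Nuclear-encoded mitochondrial proteins were read in the same way. The 78 mitochondrial ribosomal proteins had a median of 0.11 with 71 positive and a median transcript of 1253 bases. The 87 tested genes of the respiratory chain had 0.22 with 84 positive and a median transcript of 751.5 bases. The median of the mitochondrial ribosomal proteins was close to that of the TOP list (0.14), and that of the respiratory chain was higher than both. The part of transcript length in the medians of these lists was not tested. In WT mice the medians of the mitochondrial ribosomal and respiratory chain lists with either inhibitor were between -0.02 and 0.01. In G793A mice on PLX5622 against G793A controls they were -0.09 and -0.16, against -0.24 for the cytosolic ribosomal proteins and 0.00 for ribosome biogenesis.

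**Figure D5:**
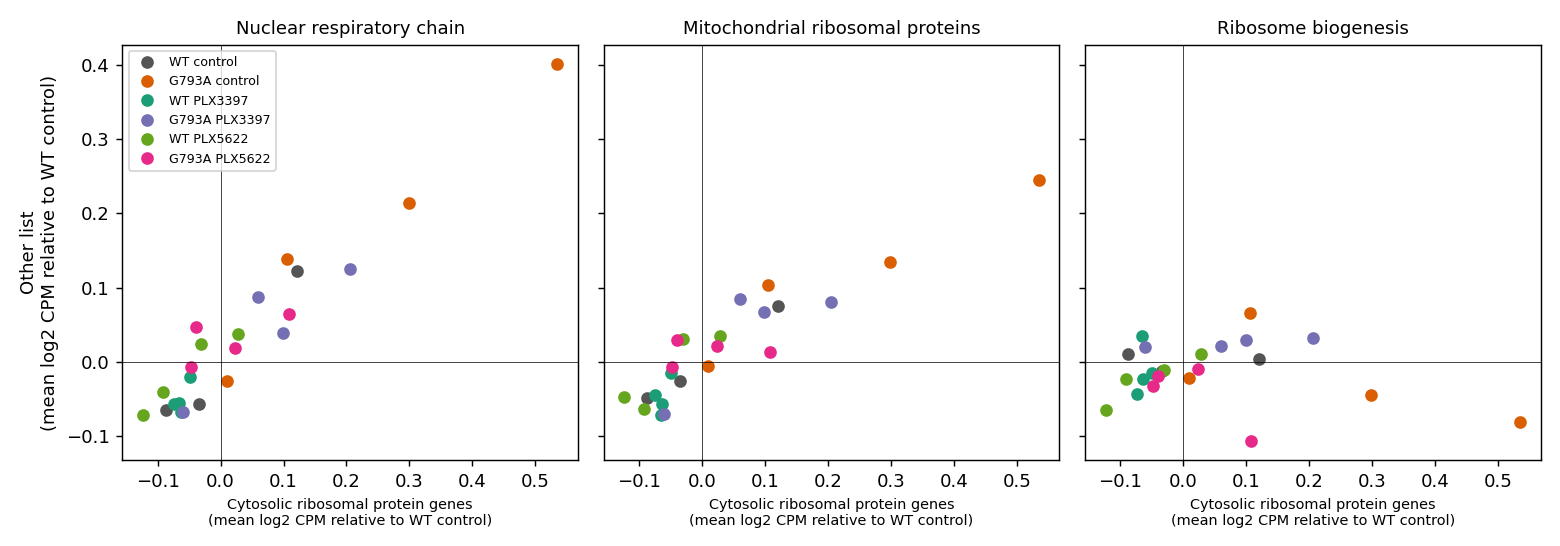
Mean log2 CPM relative to WT controls of nuclear respiratory chain genes, mitochondrial ribosomal proteins and ribosome biogenesis genes (vertical axes) against that of the 76 cytosolic ribosomal protein genes (horizontal axes), one point per library coloured by group. G793A control replicate 3 is farthest to the right in each panel, at 0.53, with 0.40, 0.25 and -0.08 on the vertical axes.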

How the data were processed

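RNA was taken from mouse brain in 23 libraries, made with an oligo-dT stranded kit per the labels' protocols. Per the submitters' processing notes, the authors used FastQC 0.11.9, kallisto 0.46.1, DESeq2 1.26.0 and GRCm39. How transcript estimates were summed to genes is not given here by any source. The deposited table holds estimated counts per symbol, of which 45.3% are not whole. A blank entry, 0.00828% to 0.0151% of a library, was left out. The authors' deposited variance-stabilised values are on a log2 scale and served as an alternative only.

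Counts were rounded and fitted in R 4.3.3 with edgeR 4.0.16 (robust quasi-likelihood, TMM, filterByExpr with minimum count 10 and minimum total 15, 1 model of 23 libraries, two-sided, Benjamini-Hochberg over 16209 genes, threshold 0.05). The common biological coefficient of variation was 0.0998. CPM uses column totals, and scores add 0.1 CPM before the log2. Alternatives used DESeq2 1.42.0 and limma 3.58.1. Length and GC content came from GENCODE vM21 by symbol, for 98.0% of genes tested; no GRCm39 annotation was used. On simulated counts of WT PLX3397 against WT controls, 71% of genes changed by 0.5 (log2) and 92% of those changed by 1 were recovered among 16077 genes, each size with 100 genes. Of the unchanged genes, 10 were called. Each gene was drawn independently, without shifts shared within a library, and no change below 0.5 was simulated. The rates therefore do not cover smaller differences shared by the members. Libraries within each group differed by more than counting noise (chi-square per degree of freedom 5.85 to 72.7, 33 pairs).

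The members, gene lists and tests were chosen with earlier results of these data known. Named genes are those past the threshold, the 3 highest and lowest fold changes of a comparison, the most and least abundant per length, and 20 genes fixed for their role. Members with non-overlapping groups, Rps26 and others, were named after their values were seen. A few single-gene values are not reported here.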

Additional observations from a re-analysis of the deposited data

Results flagged for a closer look

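Rpl22 in WT PLX3397 replicate 3 stood at 69.1 CPM, apart from the other 3 libraries of its group at 74.5 to 74.9 CPM. The gap to the nearest of them was 0.936 of the group's range, large for a group of 4. This was the only one of 105 group values looked at (the family's share of counts and 20 members in 5 groups of 4) that stood apart in this way. Chance alone would flag about 1 in 20. Leaving this library out called no member in any comparison between groups.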

How the results depend on the processing

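In the 13 comparisons between groups, interactions included, 0 members passed under RLE scaling, column totals, TMM factors without the members, both other filters, limma-voom, limma on variance-stabilised values, the compared groups alone, pseudogene entries added to their member, and the trend removal. DESeq2 called 12 members in G793A mice on PLX5622 against G793A controls. Leaving out 1 library gave 0 to 31 members for G793A controls against WT controls and 0 to 45 for G793A PLX5622 against G793A controls. Both highest counts come without G793A control replicate 2, the lowest of its group in the members. Leaving out that library by itself enlarges both differences. Over all genes, that library's absence took the calls from 0 to 375 and from 0 to 980, and DESeq2 called 313 in the latter comparison. For G793A PLX3397 against WT controls edgeR called 1 gene and DESeq2 26. With the length and GC trend removed, the medians were 0.13 for G793A controls against WT controls and -0.11 for G793A PLX5622 against G793A controls. Without G793A control replicates 3 and 4, a setting chosen after seeing the data, they were 0.056 and -0.028, that of G793A PLX3397 against G793A controls was 0.021, and the interactions were 0.061 and 0.012. Without replicate 3 alone, the medians were 0.15 for G793A controls against WT controls, -0.059 and -0.12 for PLX3397 and PLX5622 against G793A controls, and -0.016 and -0.085 for the interactions. In WT mice the medians ran from -0.07 to 0.02 with PLX3397 and from -0.07 to 0.03 with PLX5622 as single libraries were left out.

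Replicate numbers do not pair the libraries (median correlation of residuals 0.0055 over 55 same-numbered pairs). With the replicate block the medians were -0.03 with PLX3397 and -0.03 with PLX5622 in WT mice and 0.26 for G793A controls against WT controls, with 0 members called.

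For the genotype contrast averaged over diets, DESeq2 called 6 members, where it called 2.08% of all genes. Limma-voom called 2 members among 234 genes in all, and limma on variance-stabilised values 0 members among 149. The fit with the replicate block called 1 member and the trend removal 1. The fits without G793A control replicates 3 and 4, or without both libraries with cerebellar transcripts, called 0. The shares of all genes in these last fits are not given here. Leaving out 1 library gave 0 to 49 members, the highest without G793A control replicate 2, where 2.92% of all genes were called higher. That library is the lowest of its group in the members, so its absence by itself enlarges the contrast. Every member had a mean of 10.5 CPM or more, in libraries of at least 26312563 counts, and the 3 or 4 libraries of a group limit the precision.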

Other observations

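A contrast chosen after seeing the data, G793A against WT averaged over the 3 diets, gave positive log2 fold changes for all 76 members, with a median of 0.15 against -0.00 for all genes. By edgeR 2 of 76 passed, where 1.39% of all genes did: Rps9 at 0.20 ± 0.05 (adjusted p 0.036) and Rpl23 at 0.16 ± 0.04 (adjusted p 0.041). An unadjusted p under 0.05 on the higher side was found for 71 members, where 8.06% of all genes had one. Rps9, a small-subunit protein of decoding accuracy, had 183, 148 and 169.7 CPM in WT controls and 183, 174, 251 and 207 CPM in G793A controls. It had 154, 152, 154 and 156 CPM in WT and 185, 194, 184 and 160.1 CPM in G793A mice on PLX3397, and 161, 146, 151 and 162 CPM in WT and 162, 166, 172 and 171 CPM in G793A mice on PLX5622. On each inhibitor all 4 G793A libraries of Rps9 lay above all 4 WT libraries, by a narrow margin on PLX5622, and on control chow the groups overlapped. Without G793A control replicates 3 and 4, picked as the highest in the members, the family's median was 0.08 and 0 members passed. With the length and GC trend removed it was 0.07 and 1 passed.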
